A study of Canis lupus familiaris with 48 samples.

Results

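The subject is a run of neighbouring genes on chromosome 27 of the dog genome (build CanFam3.1, positions 2080744 to 2883787, a length of 803 kb), followed in MDCK I cells under 3 kinds of hyperosmotic medium. Its members are the genes that lie wholly within these bounds and had a read in any library: 29 of the 32 genes annotated there, out of 25518 genes with a read in the whole table. The run was chosen by measured values: most of its genes had lower counts after NaCl and raffinose and higher counts after urea than in control. Those 3 responses, and the differences of NaCl and raffinose from urea, therefore chose the members, and they are given below as a description. The passage labels were not used in the choice and were tested. The difference between NaCl and raffinose was not itself used and was also tested, though both groups entered the choice.

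MDCK I is an established epithelial line from canine kidney, and it is 1 line, so the replicates are passages of the same cells. All cells were grown for 144 h in all, and the groups differ in the last 24 h. The control group stayed in regular medium of 300 mOsm, and in each of the other groups 1 solute, NaCl, raffinose or urea, brought a further 200 mOsm and thus a total of 500 mOsm. Each of the 4 groups held 12 libraries of polyadenylated RNA, and the same 12 passage labels, from 1 to 19, occur in every group. Levels are given in CPM, the reads of a gene per 1e6 counted reads after scaling of the library totals (TMM, described under processing). Before scaling, library totals ran from 3.92e6 to 16.16e6 counted reads with a median of 10.51e6. The reads behind a level of 1 CPM therefore differ between libraries. For ENSCAFG00000034546, 1.21 CPM was 5 reads in the urea library of passage 8, and 1.38 CPM was 23 reads in the control library of passage 13. The labels do not state separate cultures, so p-values measure the spread between these libraries, which may be partly technical.

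As background, NaCl and raffinose are held outside the cell membrane, so that they draw water out of the cell and shrink it, whereas urea crosses membranes and raises the osmolality with little lasting change of volume. Cells of the renal medulla live with both kinds of solute. The deposited identifiers come without gene symbols, and 0 of the 32704 could be paired with the gene table used here, which is RefSeq's for another dog assembly (UU_Cfam_GSD_1.0). Members are therefore named by identifier, no function is assigned to them, and the epithelial identity of the cells was not checked against marker genes. In that other assembly, chromosome 27 carries 29 genes with symbols of the keratin family in a row, with 2 other protein-coding genes among them. Keratins build the intermediate filaments of epithelial cells. Whether the run described here is that keratin row was not tested.

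The gene models of the run share features that the choice did not use. Of the 29 members, 15 (51.7%) have 9 exons, against 857 of the 25518 genes with a read (3.36%). These 15 models have a median exonic length of 1611 bases (1446 to 3722), and 14 of them lie on the plus strand and 1 on the minus strand. Genes of the run are on both strands, 20 on the plus and 9 on the minus strand. A pair of long models covers much of the run: ENSCAFG00000007233 (2289973 to 2545103) spans 255 kb and ENSCAFG00000007251 (2567144 to 2810269) spans 243 kb, both on the plus strand with 27 separate exons. They enclose 11 of the 9-exon genes without sharing exon bases with them.

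Exons overlapped in 1 pair. ENSCAFG00000007105 (2096772 to 2111816, minus strand, 28 exons) and ENSCAFG00000030618 (2100196 to 2109248, plus strand, 2 exons) share 1017 exonic bases on opposite strands. Reads were counted without strand, so the levels of this pair are less certain than those of the other members.

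Reads were spread very unevenly over the run. ENSCAFG00000007199 took 36.3% of all reads of the 29 members, ENSCAFG00000007154 took 25.5% and ENSCAFG00000007307 took 24.8%. With ENSCAFG00000007117 these 4 genes held 91.5%. Per kb of exon, ENSCAFG00000007199 ranked 11th of the 12654 tested genes in control, ENSCAFG00000007154 ranked 16th and ENSCAFG00000007307 ranked 30th. At the other end, 15 members were too low to pass the filter on low counts and were not tested; they had 1 to 121 reads each over all 48 libraries and 388 in all. The 14 tested members include 5 of the 9-exon genes, and the untested ones include the other 10.

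The reads of all 29 members together made up 0.973 ± 0.145% of counted reads in control (SD, n = 12 here and below). With solute the share was 0.333 ± 0.038% (NaCl), 0.302 ± 0.043% (raffinose) and 1.25 ± 0.16% (urea). It was below the control of the same passage in 12 of 12 passages after NaCl and after raffinose, and above it in 11 of 12 after urea. Without the 4 most abundant genes the share went from 0.0580 ± 0.0094% in control to 0.0356 ± 0.0035% with NaCl, 0.0351 ± 0.0039% with raffinose and 0.111 ± 0.016% with urea. Most reads of this remainder came from ENSCAFG00000007328 and ENSCAFG00000007105. In that order they gave 40791 and 22452 of 75248 in control, 13420 and 28750 of 49308 with NaCl, and 87287 and 38202 of 140668 with urea. ENSCAFG00000007105 rose with every solute, so this share mixes unlike responses. In bulk RNA, fewer cells that express a gene and less RNA per cell cannot be told apart.

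Among the 14 tested members, edgeR's quasi-likelihood test (adjusted p under 0.05 over all 12654 genes) called 10 lower and 2 higher after NaCl, where 36.1% of all tested genes were called lower and 34.6% higher (70.7% in either direction). After raffinose 11 were called lower and 2 higher, beside 38.2% and 36.7% of all genes (74.9% in either direction). After urea 10 were called higher and 1 lower, beside 27.4% and 24.9% (52.3% in either direction). The median log2 fold change of the 14 with NaCl was -0.92 (-0.02 over all tested genes), with raffinose -1.12 (-0.02) and with urea 0.57 (0.02). These counts and medians follow from the way the run was picked, and nothing is read from them. The full order, lower after both NaCl and raffinose and higher after urea, was met by 6 of the 14 (42.9%), and by 849 of all 12654 tested genes (6.71%). The other 8 members departed from it in different ways, described below.

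**Figure D1:**
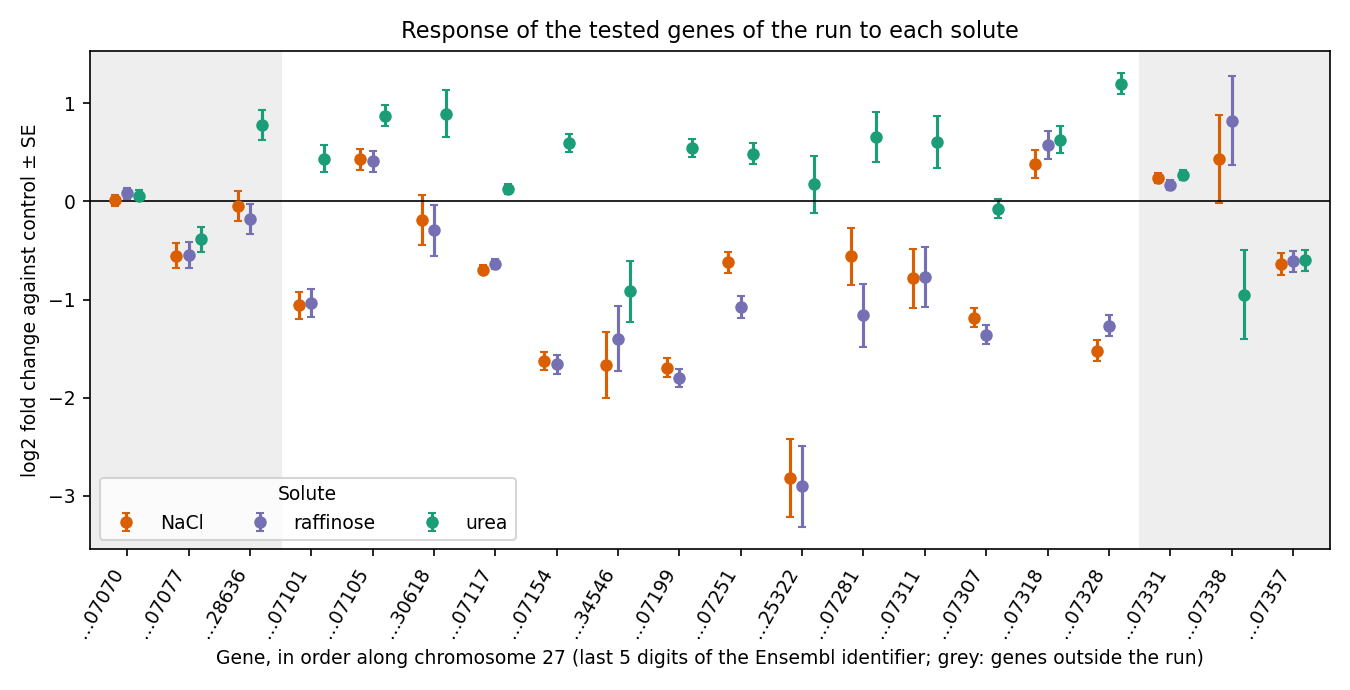
Log2 fold change against control (vertical axis, ± SE from edgeR) of the 14 tested genes of the run and of the 3 nearest tested genes on each side (grey), in their order along chromosome 27 (horizontal axis, not to scale), for NaCl, raffinose and urea. Urea lies above both other solutes at all 14 genes of the run, while ENSCAFG00000007105 and ENSCAFG00000007318 lie above 0 for every solute and ENSCAFG00000034546 lies below 0 for every solute.

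ENSCAFG00000007199 (2221689 to 2229112, plus strand, 9 exons) was the most abundant member. Its level in control ran from 2536 to 4651 CPM with a median of 3176, and after urea from 3731 to 5883 with a median of 4856. After NaCl it ran from 836 to 1252 CPM (median 1025) and after raffinose from 631 to 1159 (median 994). Every NaCl and raffinose library lay below every control and urea library, and the control and urea ranges overlapped. The log2 fold change against control was -1.70 ± 0.09 (SE) after NaCl, -1.80 ± 0.10 after raffinose and 0.55 ± 0.09 after urea, the last a 1.46-fold higher level that held in 12 of 12 passages.

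ENSCAFG00000007154 (2189327 to 2193773, minus strand, 7 exons) lies next to it among the abundant genes, with the low ENSCAFG00000034546 in between. It had 1792 to 3033 CPM in control (median 2179), 601 to 915 with NaCl (median 701), 491 to 904 with raffinose (median 741) and 2695 to 4387 with urea (median 3396). As for ENSCAFG00000007199, the median was highest with urea and lower with NaCl and raffinose than in control, and control overlapped urea but neither NaCl nor raffinose. Its log2 fold change was -1.63 ± 0.09 for NaCl and -1.66 ± 0.09 for raffinose. For urea it was 0.60 ± 0.09, higher in 12 of 12 passages.

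These abundant neighbours lie on opposite strands. Per kb of exon, the reads of ENSCAFG00000007199 over those of ENSCAFG00000007154 in the same library were 1.75 ± 0.20 in control, 1.68 ± 0.19 with NaCl, 1.60 ± 0.097 with raffinose and 1.70 ± 0.17 with urea. The ratio was below the control of its passage in 10 of 12 passages with raffinose, in 8 of 12 with NaCl and in 6 of 12 with urea. The coefficient of variation of this ratio over the control libraries was 11.3%, against 18.4% and 14.6% for the levels of the 2 genes. The ratios given here were chosen after the levels were seen, and they are not affected by the scaling of a library.

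ENSCAFG00000007307 (2760865 to 2827413, minus strand, 19 separate exons) was the third abundant member and was not called for urea. It had 1912 to 3501 CPM in control (median 2354) and 1796 to 2780 after urea (median 2452), a log2 fold change of -0.07 ± 0.09 that was not called. After NaCl it had 908 to 1362 CPM (median 1042) and after raffinose 665 to 1394 (median 922), so that both groups lay below every control library. Against control these were log2 fold changes of -1.18 ± 0.10 and -1.36 ± 0.10.

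Its proportion to ENSCAFG00000007199 therefore differed between the groups. Per kb this ratio was 0.391 ± 0.032 in control, 0.556 ± 0.028 with NaCl, 0.528 ± 0.056 with raffinose and 0.254 ± 0.020 with urea. The ratio after urea ran from 0.225 to 0.293 and in control from 0.342 to 0.450, without overlap; after NaCl it ran from 0.501 to 0.591, above all controls. ENSCAFG00000007117 also took a different proportion to ENSCAFG00000007199, at 0.102 ± 0.013 in control, 0.203 ± 0.026 (NaCl), 0.228 ± 0.036 (raffinose) and 0.0759 ± 0.0084 (urea). The ratio of ENSCAFG00000007328 to the same gene was 0.0358 ± 0.0069 in control and 0.0559 ± 0.0098 with urea, above the control of its passage in 12 of 12 passages. With raffinose it was 0.0521 ± 0.011 (above in 12 of 12) and with NaCl 0.0406 ± 0.010 (above in 8 of 12). The abundant members therefore changed to different extents within the same libraries.

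**Figure D2:**
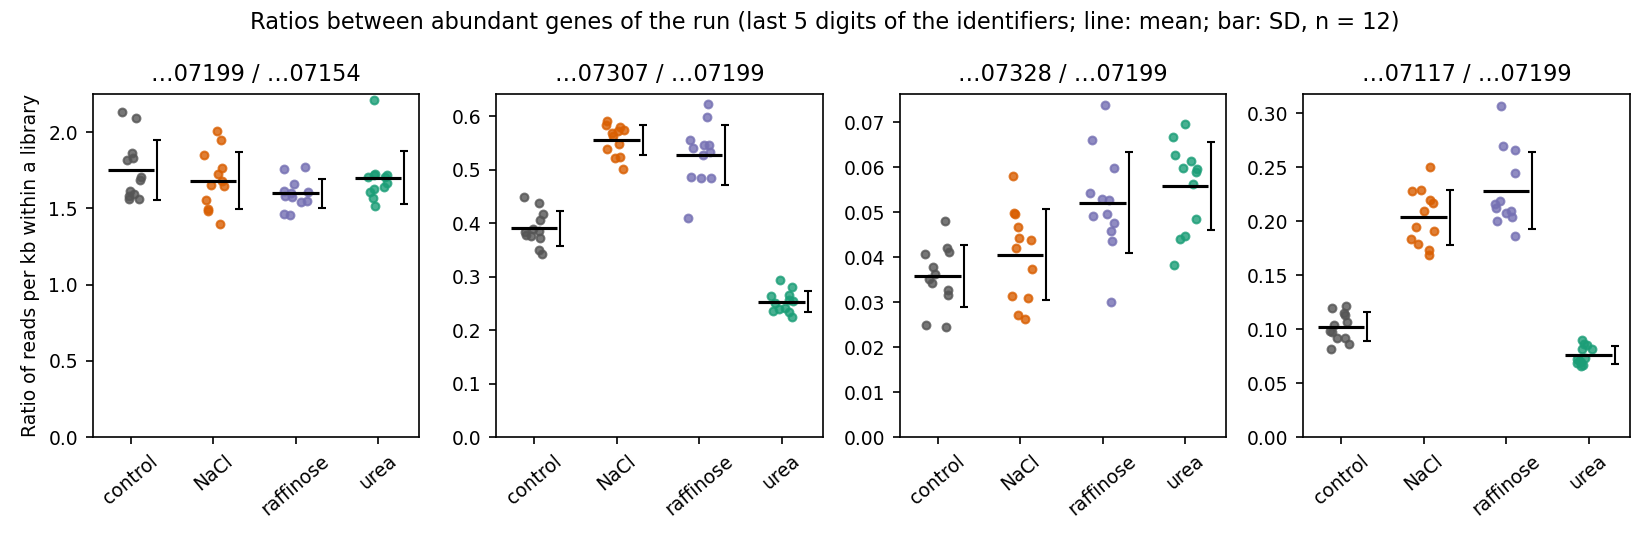
Ratio of reads per kb of exon between 2 genes within a library (vertical axes, each from 0) for 4 pairs of abundant genes of the run, by group, 1 point per library, with the mean and SD of 12. The first ratio has group means from 1.60 to 1.75, whereas ENSCAFG00000007307 and ENSCAFG00000007117 relative to ENSCAFG00000007199 are higher after NaCl and raffinose and lower after urea.

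ENSCAFG00000007117 (2120127 to 2150322, minus strand, 15 exons) varied least between libraries, with a coefficient of variation of 5.98% to 8.43% in the 4 groups. It had 368 to 472 CPM in control (median 408), 215 to 279 with NaCl (median 255), 238 to 289 with raffinose (median 265) and 399 to 508 with urea (median 444). The NaCl and raffinose libraries were again below all controls, by smaller folds than in the 3 genes above. The log2 fold changes for NaCl, raffinose and urea were -0.69 ± 0.05, -0.64 ± 0.05 and 0.13 ± 0.05. The small difference with urea, a 1.09-fold higher level in 11 of 12 passages, was called, but not with library totals as the sole scaling (log2 fold change 0.06), with other sets of genes or libraries in the fit (0.09 to 0.13), or without passage 7 (0.10) or passage 19 (0.12).

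ENSCAFG00000007328 (2861955 to 2883787, plus strand, 9 exons), the last gene of the run, had the highest rise with urea. It ran from 214 to 411 CPM in control (median 302), and from 495 to 945 after urea (median 651). It was the 1 member of 14 whose urea and control libraries did not overlap, beside 9.05% of all tested genes. The log2 fold change was 1.20 ± 0.11, or 2.30-fold.

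After NaCl the same gene had 69.5 to 142.6 CPM (median 100.5) and after raffinose 75.4 to 145.7 (median 123), with log2 fold changes of -1.52 ± 0.11 and -1.27 ± 0.11. From urea it differed by -2.72 ± 0.11 for NaCl and by -2.46 ± 0.11 for raffinose. Every library with NaCl or raffinose lay below every control and urea library.

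**Figure D3:**
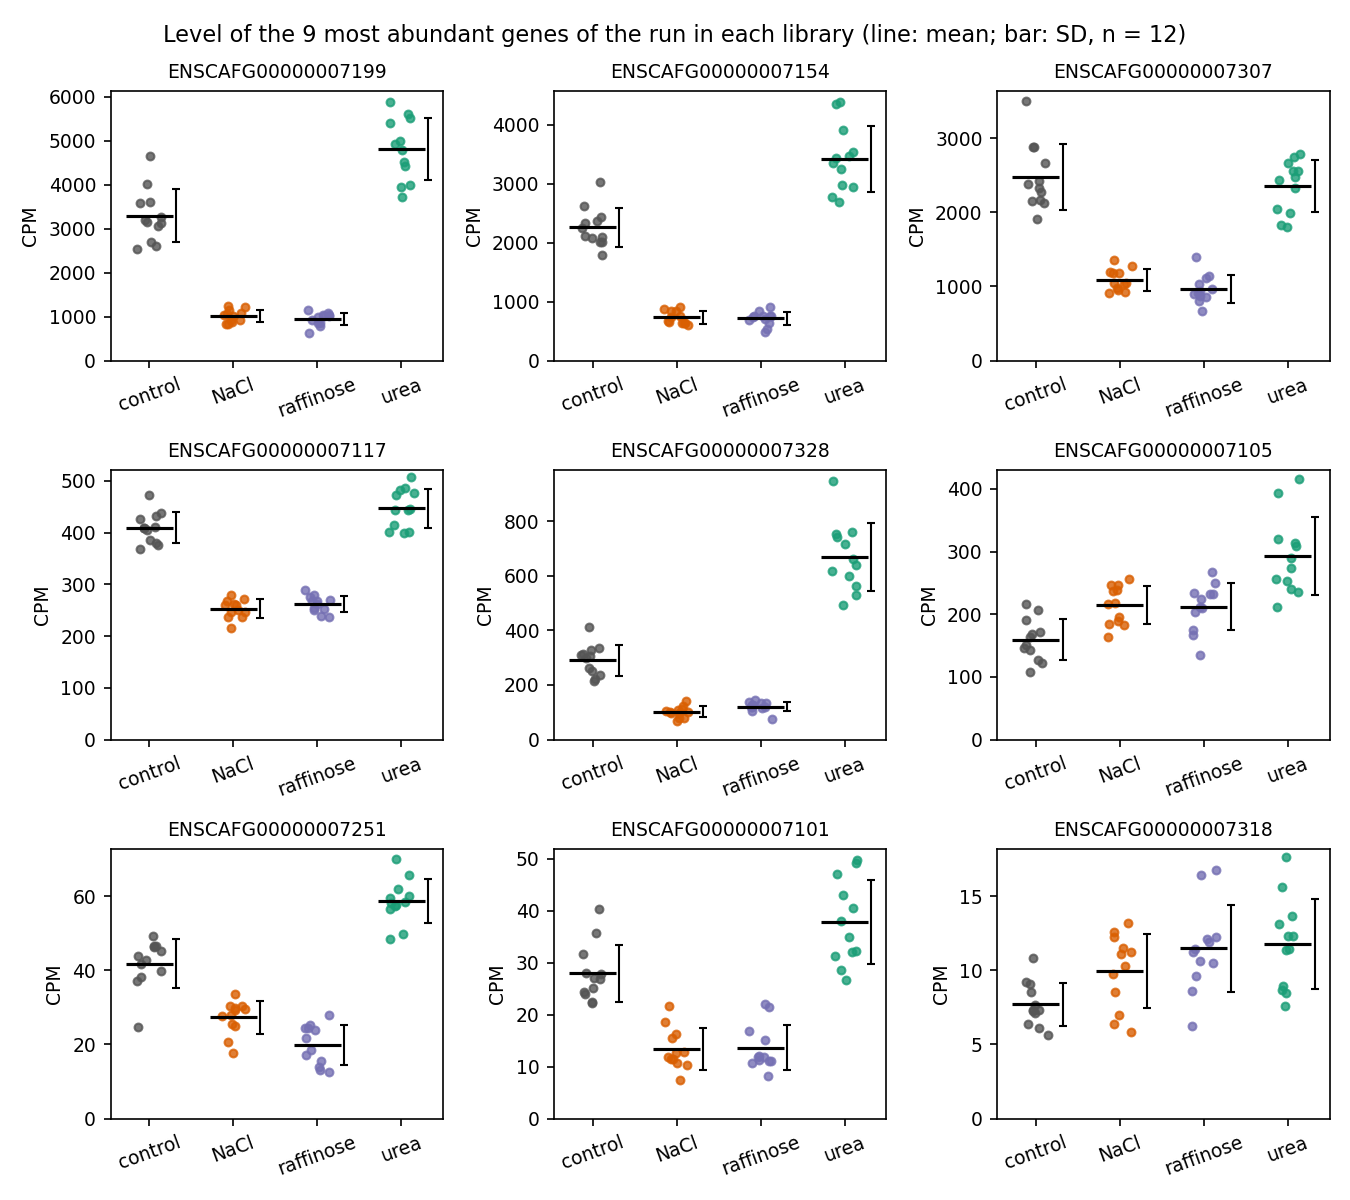
Level in CPM (vertical axes, each from 0) of the 9 genes of the run with the most reads in each library, by group, with the mean (line) and SD (bar) of 12 libraries. In 7 of the panels the NaCl and raffinose means lie below the control mean; in ENSCAFG00000007105 and ENSCAFG00000007318 all 3 solutes have means above control.

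The 2 remaining members of moderate level with the full order were ENSCAFG00000007101 and ENSCAFG00000007251. ENSCAFG00000007101 (2080744 to 2094835, plus strand, 11 exons), the first gene of the run, had 27.96 ± 5.5 CPM in control, 13.4 ± 4.0 with NaCl, 13.6 ± 4.4 with raffinose and 37.8 ± 8.1 with urea. NaCl and raffinose (log2 fold changes -1.06 ± 0.14 and -1.03 ± 0.14) did not overlap control, whereas urea (0.44 ± 0.14) did and was higher in 11 of 12 passages. ENSCAFG00000007251, the 243 kb model, had 41.8 ± 6.5 CPM in control and 58.6 ± 5.9 after urea (0.49 ± 0.10, higher in 12 of 12 passages), and fell to 27.3 ± 4.5 CPM after NaCl (-0.62 ± 0.11) and 19.8 ± 5.4 after raffinose (-1.08 ± 0.11).

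A pair of members rose with every solute. ENSCAFG00000007105 had 108.3 to 216 CPM in control (median 157), 164 to 256 with NaCl (median 217), 135 to 268 with raffinose (median 219) and 211 to 416 with urea (median 281). It was above the control of its passage in 12 of 12 passages with each solute, although the ranges overlapped. Urea gave the largest log2 fold change (0.87 ± 0.11), with 0.43 ± 0.11 for NaCl and 0.41 ± 0.11 for raffinose. With library totals as the sole scaling the value for raffinose was 0.18 and was not called.

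ENSCAFG00000007318 (2787733 to 2791076, minus strand, 4 exons) lies inside ENSCAFG00000007307, on the same strand, and was called in the opposite direction with NaCl and raffinose. It had 7.70 ± 1.5 CPM in control, 9.97 ± 2.5 with NaCl, 11.5 ± 2.9 with raffinose and 11.8 ± 3.0 with urea, with log2 fold changes of 0.38 ± 0.14, 0.57 ± 0.14 and 0.63 ± 0.14. Its levels after raffinose and urea differed by less than their spread (-0.05 ± 0.14, higher after raffinose in 6 of 12 passages). The call for NaCl was lost with library totals as the sole scaling (0.20) and without passage 1 (0.31).

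Of the 5 least abundant tested members, ENSCAFG00000034546 (2211610 to 2218198, minus strand, 4 exons) was lower with every solute. It had 1.24 ± 0.63 CPM in control, 0.399 ± 0.29 with NaCl, 0.490 ± 0.30 with raffinose and 0.694 ± 0.38 with urea, from 183, 52, 54 and 85 reads. In the same order of solutes the log2 fold changes were -1.67 ± 0.33, -1.40 ± 0.33 and -0.91 ± 0.31, and the ranges of all groups overlapped. This gene lies between the 2 most abundant members, both of which rose with urea.

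ENSCAFG00000025322 (2635288 to 2645215, plus strand, 9 exons) had the largest fall of the tested members after NaCl and raffinose, at low counts. Control libraries had 0.488 to 3.498 CPM (median 1.28) and 6 to 41 reads. NaCl libraries had at most 0.395 CPM and raffinose libraries at most 0.414, from 0 to 4 reads each, with 0 reads in 2 and 1 of the 12. Neither group overlapped control, and the log2 fold changes were -2.82 ± 0.39 and -2.90 ± 0.41. After urea the level was 1.66 ± 1.4 CPM, not called against control (0.18 ± 0.29, higher in 7 of 12 passages), with the highest value, 5.38 CPM, in the library of passage 7.

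ENSCAFG00000007281 (2663485 to 2674456) and ENSCAFG00000007311 (2746253 to 2752216), both 9-exon genes on the plus strand, had means of 0.651 and 0.865 CPM in control and of 1.02 and 1.302 CPM after urea. Their means were 0.441 and 0.513 CPM after NaCl and 0.293 and 0.484 CPM after raffinose, and the ranges of all groups overlapped in both genes. ENSCAFG00000007281 had log2 fold changes of -0.56 ± 0.29 after NaCl (not called, but called at -0.73 with library totals as the sole scaling and without passage 4 or 16), -1.16 ± 0.32 after raffinose and 0.66 ± 0.26 after urea. ENSCAFG00000007311 had -0.78 ± 0.30, -0.77 ± 0.31 and 0.60 ± 0.26, the last just outside the threshold. It was called, with values from 0.59 to 0.68, with passage as a replicate block (0.62) or a linear term, with only the 2 groups compared, and without passage 5, 8 or 13. Its calls for NaCl (-0.68) and raffinose (-0.68) were lost without passage 1, and that for raffinose also without passage 5 (-0.65). The urea library of passage 8, the shallowest of all, had 0 reads of this gene, and without that library the value was 0.68 and was called. The urea call of ENSCAFG00000007281 was lost with library totals as the sole scaling (0.59), with no filter on low counts (0.66) and without passage 5 (0.60), 13 (0.59) or 16 (0.54).

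ENSCAFG00000030618, which shares exon bases with ENSCAFG00000007105, had 1.41 ± 0.70 CPM in control, 1.25 ± 0.56 with NaCl, 1.18 ± 0.54 with raffinose and 2.67 ± 0.92 with urea. It was called for urea alone (0.89 ± 0.24, higher in 11 of 12 passages), close to the value of the gene it overlaps. NaCl (-0.19 ± 0.26) and raffinose (-0.30 ± 0.26) were not called, and there its overlapping partner was called higher.

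**Figure D4:**
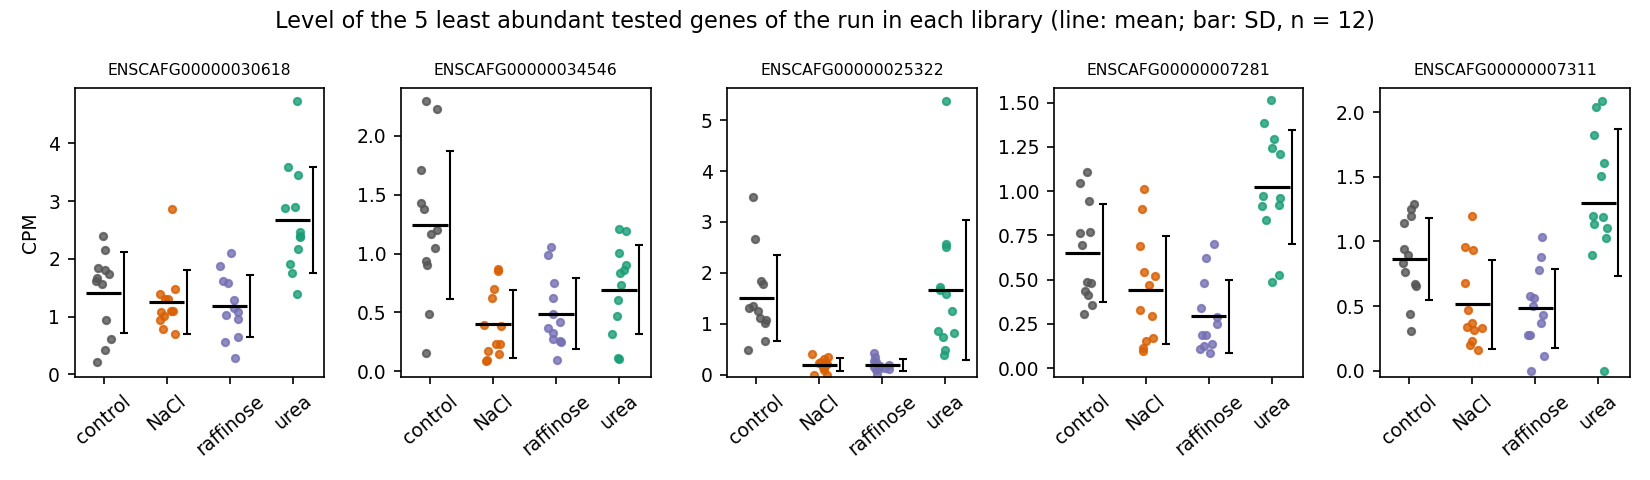
Level in CPM (vertical axes) of the 5 least abundant tested genes of the run in each library, by group, with the mean (line) and SD (bar) of 12 libraries. ENSCAFG00000025322 is at or below 0.414 CPM in all NaCl and raffinose libraries, and ENSCAFG00000034546 has its highest mean in control.

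NaCl and urea, at the same osmolality, differed at 12 of the 14 tested members, and so did raffinose and urea, all 12 lower than after urea in both cases (of all tested genes 36.9% were lower and 35.7% higher after NaCl than after urea, 72.6% in all, and 38.4% lower and 37.6% higher after raffinose, 76.0% in all). In each comparison 7 of the 14 did not overlap, beside 24.8% and 27% of all tested genes. The 2 members not called were ENSCAFG00000034546 (-0.75 ± 0.37 for NaCl and -0.48 ± 0.37 for raffinose) and ENSCAFG00000007318 (-0.25 ± 0.14 for NaCl and -0.05 ± 0.14 for raffinose). ENSCAFG00000034546 was called for NaCl with library totals as the sole scaling (-0.84) and without passage 5 (-0.97), 7 (-0.86) or 19 (-0.86). ENSCAFG00000007318 was called for NaCl with passage as a replicate block (-0.26), with library totals as the sole scaling (-0.35) and without passage 13 (-0.32). Against control, 7 of the 14 did not overlap for NaCl and 7 for raffinose, beside 24.2% and 27.2%. All of these comparisons share the same libraries of control or urea and use the contrasts that chose the run.

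The untested members had too few reads for a comparison. In the stretch from 2252057 to 2545103 (293 kb) none of the 11 members was tested, and they had 220 reads over the 48 libraries, of which 136 came from control, 45 from urea, 24 from NaCl and 15 from raffinose. Among them, 93 control reads were of the long model ENSCAFG00000007233, at 0.654 CPM on average, against 9, 5 and 14 reads after NaCl, raffinose and urea. Of these 93 reads, 26 came from the control library of passage 1, and the control mean without it was 0.495 CPM. ENSCAFG00000007286 (2706352 to 2712887, 9 exons) had 66 control reads and 12, 10 and 17 after the solutes. The control library of passage 10 gave 30 of its 66 reads, at 3.93 CPM, and the mean of the other 11 was 0.282 CPM. Over all 15 untested members, control had 224 reads and urea 85, and these 2 genes gave most of the control reads. Some other members had more reads with urea than in control, such as ENSCAFG00000025358 (18 against 12) and ENSCAFG00000007284 (14 against 12). A larger number had fewer, such as ENSCAFG00000039439 (0 against 12) and ENSCAFG00000025402 (2 against 5). A library with 0 reads of a gene could hold it at a level that would give 3 reads. That bound reflects counting error alone, as molecules were not tagged.

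The difference between NaCl and raffinose was not itself part of the choice and was tested. The choice did look for a fall after both, which may favour members that respond alike to them. It was called at 1 of 14 members, beside 15.4% of all tested genes (7.42% higher and 7.97% lower after NaCl). ENSCAFG00000007251 was higher after NaCl than after raffinose, by 0.45 ± 0.11 on the log2 scale (1.37-fold, adjusted p = 0.00269 from edgeR, higher in 12 of 12 passages). The 13 others were not called, with differences from -0.27 to 0.60, and no member's ranges were separate, beside 0.292% of all tested genes.

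With the passage label as a replicate block, which compares libraries of the same passage, 3 members were called, ENSCAFG00000007251 among them (0.47). ENSCAFG00000007307 was then higher after NaCl (0.18, adjusted p = 0.0384 from edgeR, higher in 10 of 12 passages). ENSCAFG00000007328 was lower after NaCl (-0.27, adjusted p = 0.00466, lower in 10 of 12 passages), where without the block the value was -0.26 ± 0.11 and the adjusted p 0.0881. Without passage 1 or without passage 10 ENSCAFG00000007328 was also called (-0.29, adjusted p = 0.0298, and -0.30, adjusted p = 0.042). In the fit without the block and with every passage, no member was called against a minimum fold of 1.5 (glmTreat in edgeR, 0 of 14 members, 0 at an unadjusted p under 0.05). The differences named here are all smaller than 1.5-fold, so that test could not call them. Those with the block or without a passage were not put to it.

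Passage was likewise tested, with a linear slope over the 48 libraries in log2 units per 10 passages. This fit took the libraries of a passage as independent, although they correlated at 0.31 on average after removing group means. Its p-values may therefore be too small, and a fit with 1 sample per passage, given below, called 0 members. Slopes were called at 3 of the 14 members, all downward (8.2% of all tested genes had a called downward slope and 7.99% an upward one): ENSCAFG00000007105 (-0.22 ± 0.06, adjusted p = 0.0104 from edgeR), ENSCAFG00000007328 (-0.21 ± 0.06, adjusted p = 0.0146) and ENSCAFG00000007307 (-0.18 ± 0.06, adjusted p = 0.0267). Passage 1 weighed on all of these. The passage 1 library was the highest of its group in 3 of 4 groups for ENSCAFG00000007105 and ENSCAFG00000007328 and in 2 for ENSCAFG00000007307. For ENSCAFG00000007328 the levels at passages 1 and 19 were 411 and 221 CPM in control, 143 and 80.5 with NaCl, 136 and 118 with raffinose, and 945 and 619 with urea. With raffinose its lowest level, 75.4 CPM, was at passage 10 and its highest, 145.7 CPM, at passage 17.

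The slopes without passage 1 were -0.15 (adjusted p = 0.206), -0.10 (adjusted p = 0.364) and -0.12 (adjusted p = 0.276), in the same order of genes. No member was then called by edgeR (1 at an unadjusted p under 0.05). Adding up the counts of each passage, to give 12 samples, also gave 0 called members (1 at an unadjusted p under 0.05, lowest adjusted p = 0.335 from edgeR), beside 0.0632% of all tested genes (0.0474% upward and 0.0158% downward). ENSCAFG00000007307 was also not called without passage 5 (-0.15), 14 (-0.17) or 17 (-0.15), and ENSCAFG00000007105 and ENSCAFG00000007328 were not called without passage 19 (both -0.20). Leaving out passage 19 added calls at ENSCAFG00000007199, the most abundant member (-0.25, adjusted p = 0.00416 from edgeR, against -0.12 with it), and at ENSCAFG00000007101 (-0.33, adjusted p = 0.00673, against -0.12). ENSCAFG00000030618 was called without passage 16 (-0.57, adjusted p = 0.00438 from edgeR). Without passage 4, 5 members were called, all downward, with ENSCAFG00000030618 (-0.48) and ENSCAFG00000007318 (-0.25) added.

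**Figure D5:**
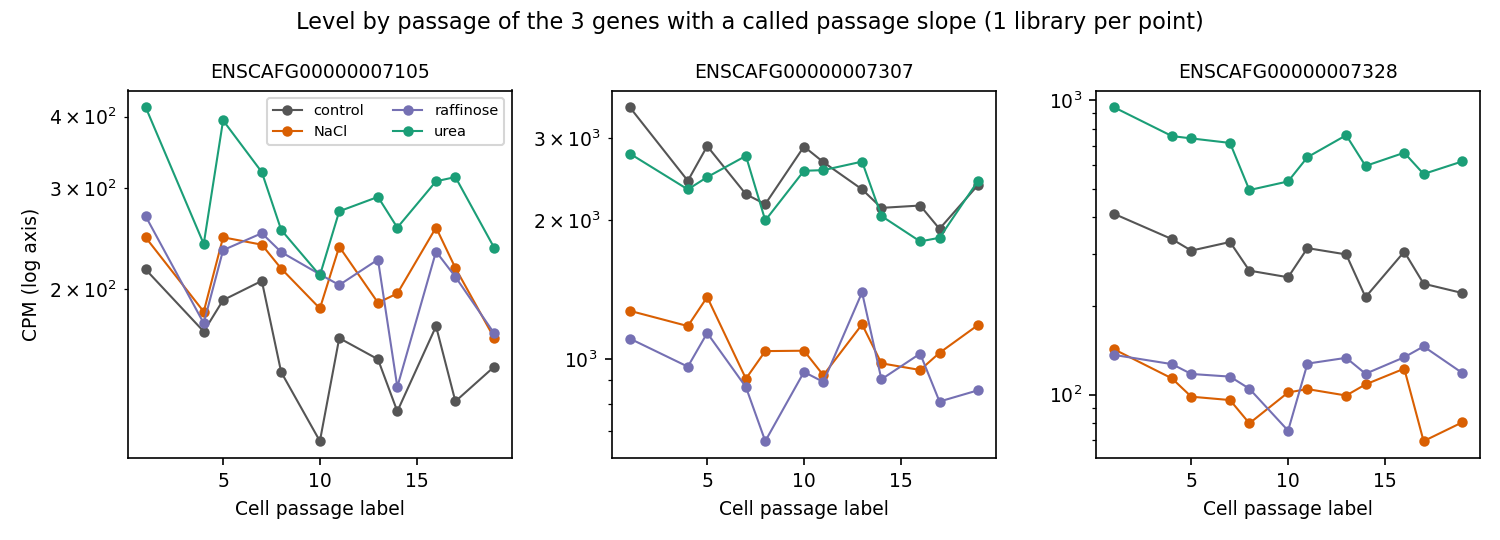
Level in CPM (vertical axes, log scale) against the cell passage label (horizontal axes) for the 3 genes with a called passage slope, 1 library per point and 1 line per group. The passage 1 library is the highest of its group in 3, 2 and 3 of the 4 groups for ENSCAFG00000007105, ENSCAFG00000007307 and ENSCAFG00000007328, and the urea line of ENSCAFG00000007328 lies above the control line at every passage.

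Whether the response to a solute changed with passage was tested with solute by passage terms. edgeR called 0 of the 14 members for NaCl, raffinose and urea, and 0% of all tested genes. At an unadjusted p under 0.05 there were 0 members for NaCl, 3 for raffinose and 0 for urea. Those 3 were ENSCAFG00000034546, ENSCAFG00000007251 and ENSCAFG00000007328. Their raffinose slopes differed from the control slopes by -1.54 ± 0.62, 0.44 ± 0.18 and 0.42 ± 0.17 log2 units per 10 passages. The lowest adjusted p among the members was 0.856, for raffinose.

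At the lower bound of the run, the nearest tested gene outside is ENSCAFG00000028636 (2063493 to 2067766, minus strand). Like ENSCAFG00000007101 just inside, it was higher after urea, at 52.5 ± 8.3 CPM against 30.6 ± 8.9 in control (log2 fold change 0.78 ± 0.15). Unlike that gene it was close to control after NaCl (-0.04 ± 0.15) and raffinose (-0.18 ± 0.15). The next gene outward, ENSCAFG00000007077, had lower levels with all 3 solutes (-0.55 ± 0.13, -0.54 ± 0.13 and -0.39 ± 0.13 for NaCl, raffinose and urea), and ENSCAFG00000007070 had values close to 0 (0.01 ± 0.06, 0.08 ± 0.06 and 0.06 ± 0.06).

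Beyond the upper bound, where ENSCAFG00000007328 is the last member inside, ENSCAFG00000007331 (2931041 to 2934922) was higher with every solute by 0.17 to 0.27 on the log2 scale. ENSCAFG00000007338 varied widely between libraries (17.5 to 542 CPM after NaCl), and its differences from control were not called (-0.95 ± 0.46 for urea, 0.43 ± 0.45 for NaCl and 0.82 ± 0.45 for raffinose). In the direction opposite to the run, it was called higher after NaCl (1.38 ± 0.46) and raffinose (1.77 ± 0.46) than after urea. ENSCAFG00000007357 was lower by similar amounts with NaCl (-0.64 ± 0.11), raffinose (-0.61 ± 0.11) and urea (-0.60 ± 0.11). None of these 6 neighbours combined a lower level after NaCl and raffinose with a higher level after urea past the threshold. The bounds are the outer ends of ENSCAFG00000007101 and ENSCAFG00000007328, which both met this order, in a run chosen by it. Its absence just outside therefore follows at least partly from where the bounds were set, and nothing is read from it.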

How the data were processed

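The deposited table holds raw counts, 1 value for each gene in each library, and each gene's exonic length. CASAVA, HISAT2 2.0.5 and featureCounts 1.5.1 were used, per the submitters' processing notes. Per the file headers, exon reads were added up by gene with no use of strand, and the gene models were those of Ensembl release 87 for CanFam3.1. No setting for ambiguous reads is recorded in the command, so near-identical or overlapping genes are less certain. Libraries came from the TruSeq RNA kit, version 2, per the labels' protocols. The 4 columns of passage 10 carry an added number in their names and were matched to the passage 10 libraries. The table had 0 blank rows and 0 unused columns of values.

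The test was edgeR's quasi-likelihood test (version 4.0.16, R 4.3.3) after filterByExpr (12654 genes kept) and TMM scaling, in 1 model of the 4 groups over all 48 libraries, with Benjamini-Hochberg adjustment over all tested genes and a threshold of 0.05. CPM use TMM-scaled totals; an SE is the log2 fold change divided by the root of its F statistic, without sign. Exons are counted after merging overlapping entries. The scripts were tested on simulated data in which libraries of a passage were drawn independently, so that check does not cover correlation within a passage. No 2 libraries of a group were alike within sampling noise (lowest chi-square per gene 5.26), so none was taken as a copy of another. Each counted as 1 replicate, though this check cannot show that they came from separate cultures. The main model had no passage term, so its calls, SEs and p-values are unpaired. Libraries were paired by passage in the replicate block and in counts of passages alone. The labels give 1 library per group to each passage but do not state whether these came from 1 culture. After removing group means the 72 same-passage pairs correlated at 0.31 on average (-0.09 to 0.70), against -0.03 for the other 792. The members, gene groups and tests were chosen with earlier results of these data known. By rule, every member was described, with the 3 nearest tested genes on each side.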

Additional observations from a re-analysis of the deposited data

How the results depend on the processing

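Each comparison was repeated with DESeq2 1.42.0, with RLE factors or library totals in place of TMM, without the low-count filter or with 5 CPM as the lowest mean, with passage as a replicate block or a linear term, with a minimum fold of 1.5, on the 2 groups alone, and without each passage or the shallowest library. Of 1986 values of single members under these alternatives, 25 changed sign, and 0 of those were called in either fit. RLE factors and DESeq2 changed no call of a member, and library totals only changed 7. Under library totals, the all-gene median moved to -0.19 for NaCl, -0.25 for raffinose and -0.05 for urea, and the share of called genes that were higher fell from 48.9% to 34.5%, from 49% to 33.4% and from 52.3% to 40.1%; for raffinose against urea it went from 49.5% to 38.8%, and for NaCl against raffinose from 48.2% to 71.1%. The number of members called for urea was 7 at a mean of at least 5 CPM, where fewer members are tested, and 2 against a minimum fold of 1.5, in place of 11. For NaCl against raffinose it was 3 with the replicate block, 2 with the linear passage term and 0 (0 at an unadjusted p under 0.05) against the minimum fold, in place of 1. For the passage slope it was 0 with summed counts (1 at an unadjusted p under 0.05 in edgeR) and 0 without passages 1 and 19 (3 at an unadjusted p under 0.05), in place of 3. With 1 passage left out in turn, the number called ran from 10 to 13 for NaCl, 12 to 13 for raffinose, 9 to 12 for urea, 11 to 13 for NaCl against urea, 11 to 12 for raffinose against urea, 1 to 2 for NaCl against raffinose and 0 to 5 for the passage slope. The replicate block changed 4 calls of members, each given above. The 5 members under about 3 CPM rest on 321 to 852 reads over all libraries, which limits their precision most.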
